A study of Mus musculus with 15 samples.

Results

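The genes described here are 10 genes of the urea cycle and of arginine use, chosen by symbol from the table of exon read counts: Nags, Cps1, Otc, Ass1, Asl, Arg1, Arg2, Slc25a15, Slc7a2 and Nos2. They are 10 of 38087 gene rows. All 10 were tested, against 17405 genes tested in all, but Nos2 passed the filter on low counts only because of its counts in the growth hormone libraries, and 9 pass without them. Total RNA was sequenced from CD-1 mouse hepatocytes that had been stored frozen and then cultured on collagen under a matrix overlay (200000 cells per well). The 13 libraries used form 5 groups. Male hepatocytes received serum of conventionally raised male mice (m_pHep_m_ConvR, 3 libraries). Female hepatocytes received the same serum (f_pHep_m_ConvR, 3 libraries), serum of germ-free female mice with growth hormone (f_pHep_f_GF_serum_GH, 3 libraries), germ-free female serum without it (f_pHep_f_GF_serum, 2 libraries) or serum of conventionally raised female mice (f_pHep_f_ConvR, 2 libraries). Every group had 25% mouse serum for 24 h in a medium that also held dexamethasone and insulin. Mouse growth hormone at 8 ng per ml, or its vehicle PBS, was present for the last 2 h.

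Each sex of the cells is a single cell stock, so donor sex and stock cannot be told apart. Whether the replicates came from different cultures or donors is not stated, so the p-values measure only the spread between these samples, which may be technical. In bulk RNA, fewer cells of a type and less RNA per cell cannot be told apart. Library totals ran from 34097400 to 48742274 counts. Albumin (Alb) ran from 5820 to 18100 CPM (read counts relative to library size, scaled by TMM) over the 13 libraries, and all 8 hepatocyte markers on the list had counts in every library. Xist, the RNA of the inactive X chromosome, had 0 to 3 counts in the male-cell libraries and 9654 to 32396 counts in the female-cell libraries.

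The urea cycle turns ammonia into urea and runs at full scale only in periportal hepatocytes. Nags makes N-acetylglutamate, which Cps1 needs in order to join ammonia and bicarbonate to carbamoyl phosphate in the mitochondrion. Otc adds this to ornithine, Ass1 and Asl make arginine in the cytosol, and Arg1 splits arginine into urea and ornithine, which the carrier Slc25a15 returns to the mitochondrion. Arginine has other uses: Arg2 is a mitochondrial arginase, Slc7a2 carries arginine and other cationic amino acids into the cell, and Nos2, the inducible nitric oxide synthase, turns arginine into nitric oxide and citrulline.

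The promoter windows of Otc and Ass1 are shown because these enzymes of neighbouring steps behaved differently between the cell stocks (Otc changed, Ass1 did not pass the test). Each window runs from 250 bases before to 50 bases after the RefSeq start (GRCm38.p6), on the + strand, at chrX:10252055-10252354 for Otc and chr2:31470020-31470319 for Ass1. Capitals mark the match to AAAGTNCA, a core of sites read by the liver nuclear receptor HNF4A.
Otc: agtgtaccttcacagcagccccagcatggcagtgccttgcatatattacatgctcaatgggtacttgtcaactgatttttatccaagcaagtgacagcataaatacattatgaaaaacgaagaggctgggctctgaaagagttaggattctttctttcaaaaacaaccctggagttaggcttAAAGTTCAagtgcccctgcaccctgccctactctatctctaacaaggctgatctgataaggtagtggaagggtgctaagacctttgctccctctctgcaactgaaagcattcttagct
Ass1: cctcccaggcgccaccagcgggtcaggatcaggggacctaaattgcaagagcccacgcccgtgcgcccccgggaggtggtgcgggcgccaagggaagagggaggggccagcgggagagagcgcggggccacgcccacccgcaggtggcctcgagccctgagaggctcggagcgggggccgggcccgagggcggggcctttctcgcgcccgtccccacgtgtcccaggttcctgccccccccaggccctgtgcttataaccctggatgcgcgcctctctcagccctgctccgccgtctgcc
Windows of 4 of the 10 genes were in the table used (Otc, Ass1, Nags and Slc25a15, the last with 2 windows), and they were searched on both strands for AAAGTNCA, TATAAA (the core promoter box), TTGCNNAA (C/EBP type) and TTCNNNGAA (STAT type). The Otc window held 1 AAAGTNCA match, which begins at position -68 from the start and overlaps no other motif match. The other windows held none of the 4. Over 32851 promoter windows of the same length, AAAGTNCA was found in 4.12%, TATAAA in 13.6%, TTGCNNAA in 10.8% and TTCNNNGAA in 8.3%. The Otc window had 44.3% G and C and the Ass1 window 74.0%, against a median of 52.7% over all windows.

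**Figure D1:**
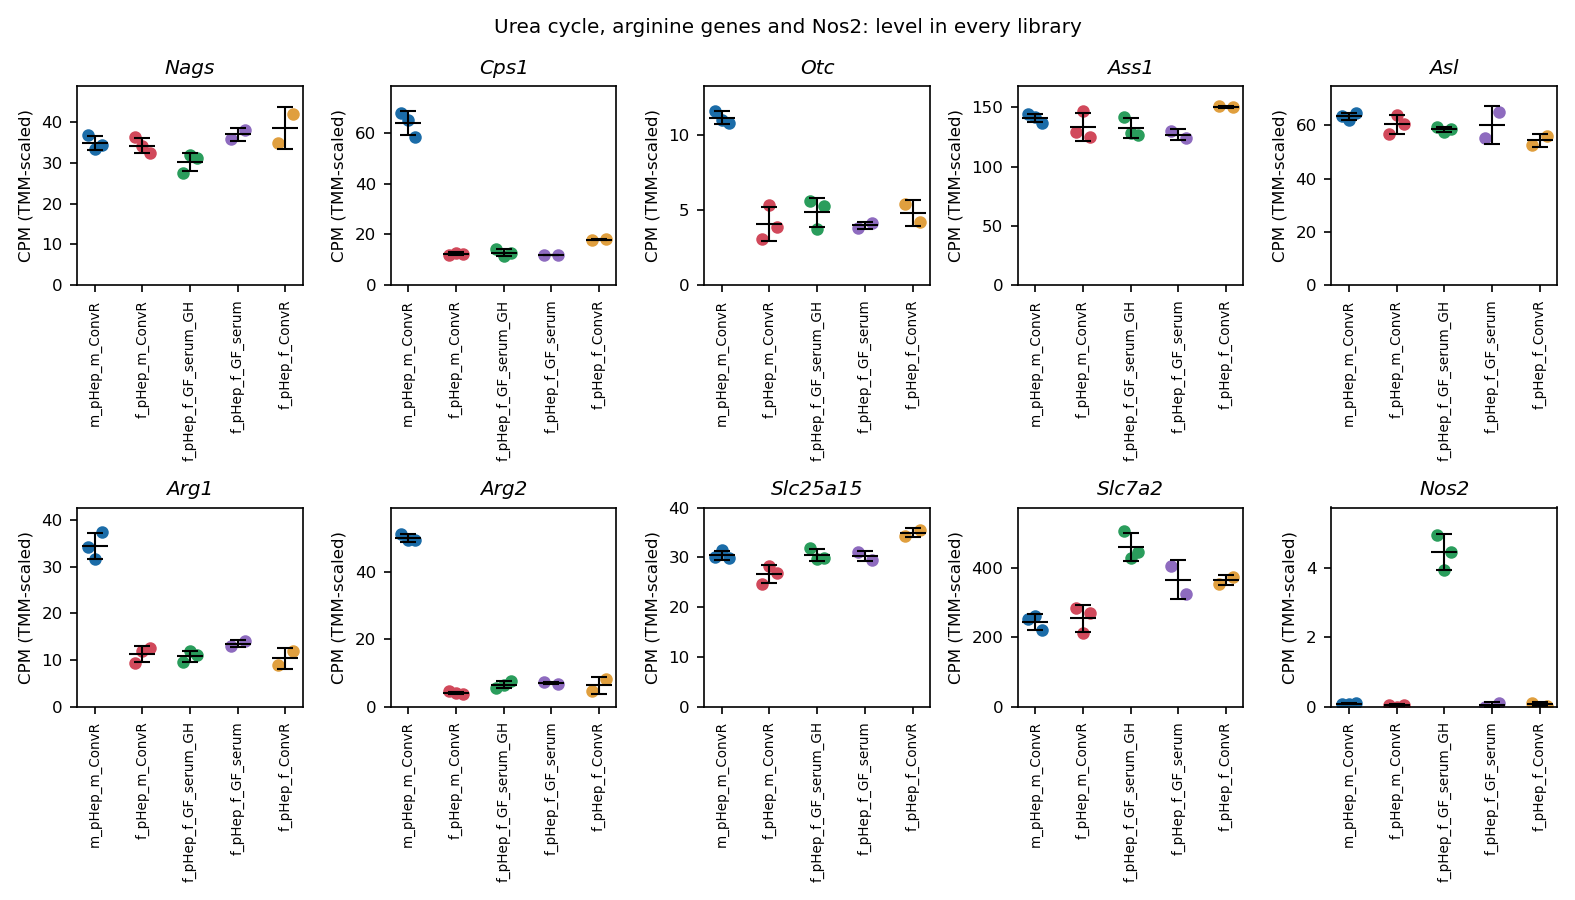
Level of each of the 10 genes in every library, in CPM on TMM-scaled library sizes (vertical axis from 0), for the 5 groups; points are libraries and the black bars give the mean and SD. Cps1, Otc, Arg1 and Arg2 stood apart in the 3 male-cell libraries, and Nos2 in the 3 growth hormone libraries. Slc7a2 ran from 428 to 506 CPM with growth hormone and from 211 to 284 CPM in female cells with male serum. The remaining panels show ranges that are close or overlap between most groups.

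Male hepatocytes held much more RNA of Arg2, Cps1, Arg1 and Otc than female hepatocytes in the same male serum, while Nags, Ass1, Asl, Slc7a2 and Nos2 did not pass the test. Of the mitochondrial enzymes, Cps1, Otc and the arginase Arg2 were higher in male cells, and Nags did not pass the test. Of the cytosolic enzymes of the cycle, Arg1 was higher, and Ass1 and Asl did not pass the test. Of the 10 genes, 5 rose in male cells and 0 fell, where 17.6% of all genes tested rose and 19% fell, 36.7% in all (edgeR quasi-likelihood test, Benjamini-Hochberg adjusted p under 0.05). Their median log2 fold change was 0.71, against -0.02 over all genes tested. This median falls between Slc25a15 (0.2) and Nos2 (1.22 ± 0.905, adjusted p = 0.314). It thus rests in part on a gene near the limit of detection in both stocks.

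At the entry of the cycle, Nags had 36.9, 33.5 and 34.4 CPM in male cells, against 36.3, 34.1 and 32.5 CPM in female cells, a log2 fold change of 0.03 ± 0.0812 (SE). The ranges overlapped almost entirely. Cps1 (chr1:67123026-67231259 in mm10) had 67.8, 65.2 and 58.6 CPM in male cells, against 11.7, 12.8 and 12.4 CPM in female cells. Every male library was above every female library, and the log2 fold change was 2.38 ± 0.0822 (adjusted p = 2.86e-12), or 5.19-fold. Otc (chrX:10252305-10321024) had 11.6, 11.0 and 10.8 CPM in male cells, against 3.03, 5.31 and 3.87 CPM in female cells, without overlap and with a log2 fold change of 1.45 ± 0.18 (adjusted p = 1e-05).

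For the cytosolic steps, Ass1 had 144, 142 and 137 CPM in male cells, against 129, 147 and 125 CPM in female cells (log2 0.08 ± 0.0669, adjusted p = 0.389). Asl had 63.4, 62.2 and 64.7 CPM in male cells, against 56.9, 64.0 and 60.6 CPM in female cells (log2 0.07 ± 0.0677, adjusted p = 0.464). Both pairs of groups overlapped, so these differences lay within the spread between libraries. Arg1 (chr10:24915221-24927484), the last enzyme of the cycle, had 34.3, 31.7 and 37.4 CPM in male cells, against 9.4, 12.0 and 12.6 CPM in female cells, a rise of 1.61 ± 0.127 on the log2 scale (adjusted p = 6.91e-08). The ornithine carrier Slc25a15 had 30.0, 31.5 and 29.9 CPM in male cells, against 24.7, 28.3 and 26.8 CPM in female cells. This difference was small (log2 0.2 ± 0.0661, adjusted p = 0.0282), and the call was lost without female-cell replicate 1 (0.15, adjusted p = 0.116) or 3 (adjusted p = 0.0502), without male-cell replicate 2 (adjusted p = 0.0797), and on unscaled library totals (0.11, adjusted p = 0.248).

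Among the other users of arginine, Arg2 differed most of the 10 genes between the stocks. The gene (chr12:79130777-79156301) had 51.3, 49.3 and 49.4 CPM in male cells, against 4.5, 3.92 and 3.79 CPM in female cells. The log2 fold change was 3.62 ± 0.164 (adjusted p = 7.4e-11), or 12.3-fold, with no overlap. Exons of Arg2 share 285 bp, 20.0% of their length, with Vti1b on the opposite strand, and the strand setting of the counts is not given. Vti1b, a membrane fusion protein, had 74.9 ± 3.2 CPM in male cells and 70.9 ± 2.22 CPM in female cells (SD, n = 3 each), a log2 fold change of 0.08 ± 0.0644 (adjusted p = 0.365). Slc7a2 had 251, 262 and 219 CPM in male cells, against 284, 211 and 268 CPM in female cells, with overlapping ranges (log2 -0.06 ± 0.108). Nos2 was near the limit of detection in both, with 2, 3 and 4 counts in male cells and 2, 0 and 2 counts in female cells.

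Female cells stayed below the male range of these enzymes in all 4 groups. Cps1 lay between 58.6 and 67.8 CPM in the 3 male-cell libraries, while its lowest, median and highest level over the 10 female-cell libraries was 11.6, 12.6 and 18.0 CPM. Arg2 lay between 49.3 and 51.3 CPM in male cells, and ran from 3.79 through a median of 5.97 to 8.13 CPM in female cells. Arg1 lay between 31.7 and 37.4 CPM in male cells, and ran from 8.82 through a median of 11.9 to 14.0 CPM in female cells. No female-cell library reached the male range for these genes or for Otc (10.8 to 11.6 CPM in male cells and 3.03 to 5.56 CPM in female cells), whichever serum or hormone it had received.

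Levels of different genes were compared per kilobase of exon (CPM per kb). Ass1 was the most abundant of the 10 in every group, at 58.4 CPM per kb in male cells, 55.3, 54.9 and 52.6 CPM per kb in female cells with male serum, with germ-free serum plus growth hormone and with germ-free serum, and 62.4 CPM per kb with conventional female serum. In male cells Arg2 came next, at 35.0 ± 0.782 CPM per kb, and in each female group Slc7a2, between 27.9 and 50.4 CPM per kb. Cps1, in liver tissue among the most abundant enzymes, was at 11.5 CPM per kb in male cells and at 2.15 to 3.22 CPM per kb in the female groups. Within a library, the ratio of Arg2 to Arg1 per kb was 2.27 ± 0.194 in male cells and 0.576 ± 0.149 in female cells in the same serum (SD, n = 3 each), and it was between 0.743 and 1.06 in every library of the other female groups. The mitochondrial arginase thus had more RNA per length than the cytosolic one in each male library, and less in each female library in male serum. The ratio of Cps1 to Ass1 was 0.197 ± 0.01 in male cells and 0.0402 ± 0.00269 in female cells in the same serum.

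**Figure D2:**
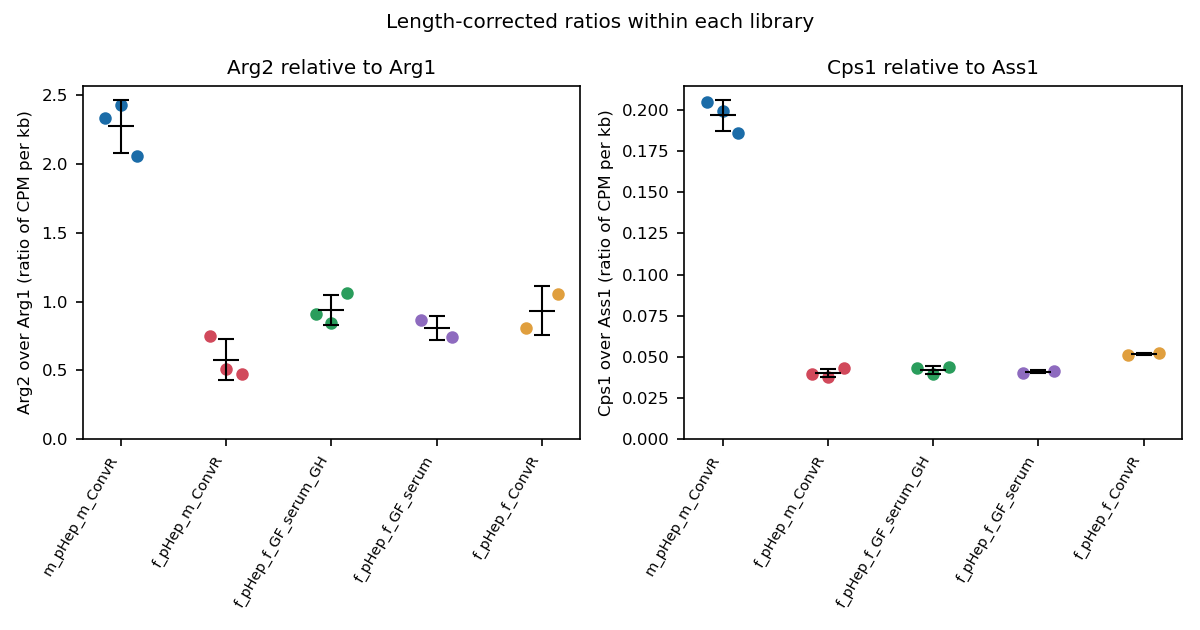
Ratio of Arg2 to Arg1 (left) and of Cps1 to Ass1 (right) within each library, from CPM per kb of exon, with axes from 0; points are libraries and bars are mean and SD. Arg2 over Arg1 lay between 2.06 and 2.43 in male cells and between 0.47 and 1.06 in all female-cell libraries; Cps1 over Ass1 lay between 0.186 and 0.205 in male cells and did not pass 0.052 in female cells.

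Other genes near the cycle moved in both directions between the stocks. Of all genes tested, 17.6% rose in male cells and 19% fell. Of 17 tested genes of ammonia handling outside the 10, 7 rose in male cells and 4 fell (median log2 0.22). The alanine aminotransferases Gpt2 (218 ± 5.47 CPM in male cells and 91.4 ± 3.59 CPM in female cells, log2 1.25) and Gpt (log2 0.87) rose. Glul, glutamine synthetase, fell to 79.8 ± 2.88 CPM in male cells, against 134 ± 13.0 CPM in female cells, and Got2, the mitochondrial aspartate aminotransferase, fell by 0.36 on the log2 scale. Of 28 tested genes of arginine, ornithine and polyamine use, 8 rose and 8 fell (median log2 -0.02, as over all genes). Agxt2, which breaks down methylated arginine among other substrates, rose by 1.5, while the ornithine-consuming enzymes Oat (43.7 ± 2.14 CPM in male cells and 72.6 ± 3.94 CPM in female cells, log2 -0.73) and Odc1 (log2 -0.61) and the proline oxidase Prodh (log2 -0.87) fell. Each of these 8 had adjusted p of 7.4e-05 or below.

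Of 14 tested regulators of urea cycle genes, 4 rose and 3 fell in male cells (median log2 0.04), where 17.6% of all genes tested rose and 19% fell. The glucagon receptor Gcgr (log2 0.86) and the fasting hormone Fgf21 (log2 1.75) rose, and the transcription factors Foxo1 (log2 -0.99) and Foxa2 (log2 -0.63) fell, with adjusted p between 1.14e-06 and 7.75e-05. Of 14 tested genes of nitric oxide synthesis other than Nos2, 3 rose and 1 fell, which is no larger a share than the 36.7% of all genes called between the stocks. Gch1 and Pts, which make the cofactor tetrahydrobiopterin, rose by 0.3 each (adjusted p = 0.00139 and 0.015). Pts lost its call without female-cell replicate 1 (adjusted p = 0.0522), without male-cell replicate 3 (adjusted p = 0.062) and on unscaled totals (adjusted p = 0.0674). Nos3, the endothelial synthase, rose by 1.87 to 0.785 ± 0.0937 CPM in male cells, against 0.213 ± 0.071 CPM in female cells, and Nos1ap, a binding partner of the neuronal synthase, fell by 1.16 on the log2 scale. Of 19 tested signals known to act upstream of Nos2, 10 rose and 3 fell, with the lipopolysaccharide co-receptor Cd14 (log2 0.75), the interleukin 1 receptor chains Il1rap (0.69) and Il1r1 (0.93) and the NF-kB inhibitor Tnfaip3 (0.66) first by p.

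Markers of several cell types also differed between the stocks, where 17.6% of all genes tested rose in male cells and 19% fell. The sum of 8 hepatocyte markers ran from 20600 to 21700 CPM in male cells and from 8020 to 8280 CPM in female cells in the same serum; 7 of the 8 rose (median log2 1.66) and Hnf4a fell by 0.33. The sum of 7 endothelial markers was 49.0 to 52.1 CPM in male cells and 15.2 to 17.4 CPM in female cells, with 6 of 7 higher. That of 12 Kupffer cell and macrophage markers was 153 to 172 CPM in male cells and 85.1 to 103 CPM in female cells, most of it Cd68, the single marker of this list past the threshold. The median log2 of the 9 tested was -0.27. The sum of 8 stellate and fibroblast markers was 29.9 to 34.0 CPM in male cells and 16.1 to 22.0 CPM in female cells. For 5 cholangiocyte markers the sum, most of it Sox9, was 17.2 to 19.9 CPM in male cells and 21.8 to 31.5 CPM in female cells. Of these 5, however, 2 were called higher in male cells and 1 lower, with a median log2 of 1.27. For 8 leukocyte markers the sum was 1.21 to 1.91 CPM in male cells and 1.21 to 1.59 CPM in female cells. The part of these markers in the differences of the urea cycle and arginine genes was not tested.

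By the distance between centred log2 CPM profiles over the 13 libraries, the genes most like Cps1 were Pck1, the gluconeogenic phosphoenolpyruvate carboxykinase, Apoa4, an apolipoprotein, Akr1c6, a steroid-metabolising reductase, Csad, an enzyme of taurine synthesis, and Serpina3m, a serine protease inhibitor. Their root mean square differences from Cps1 were 0.13, 0.18, 0.18, 0.18 and 0.19 on the log2 scale. Pck1 averaged 16.2 CPM in male cells and 3.31 CPM in female cells in the same serum. In the female groups it averaged 3.53 CPM with germ-free serum plus growth hormone, 2.96 CPM with germ-free serum and 4.63 CPM with conventional female serum, the same order of the 5 group means as for Cps1. Pck1 was chosen by its profile, so this likeness follows from the choice.

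**Figure D3:**
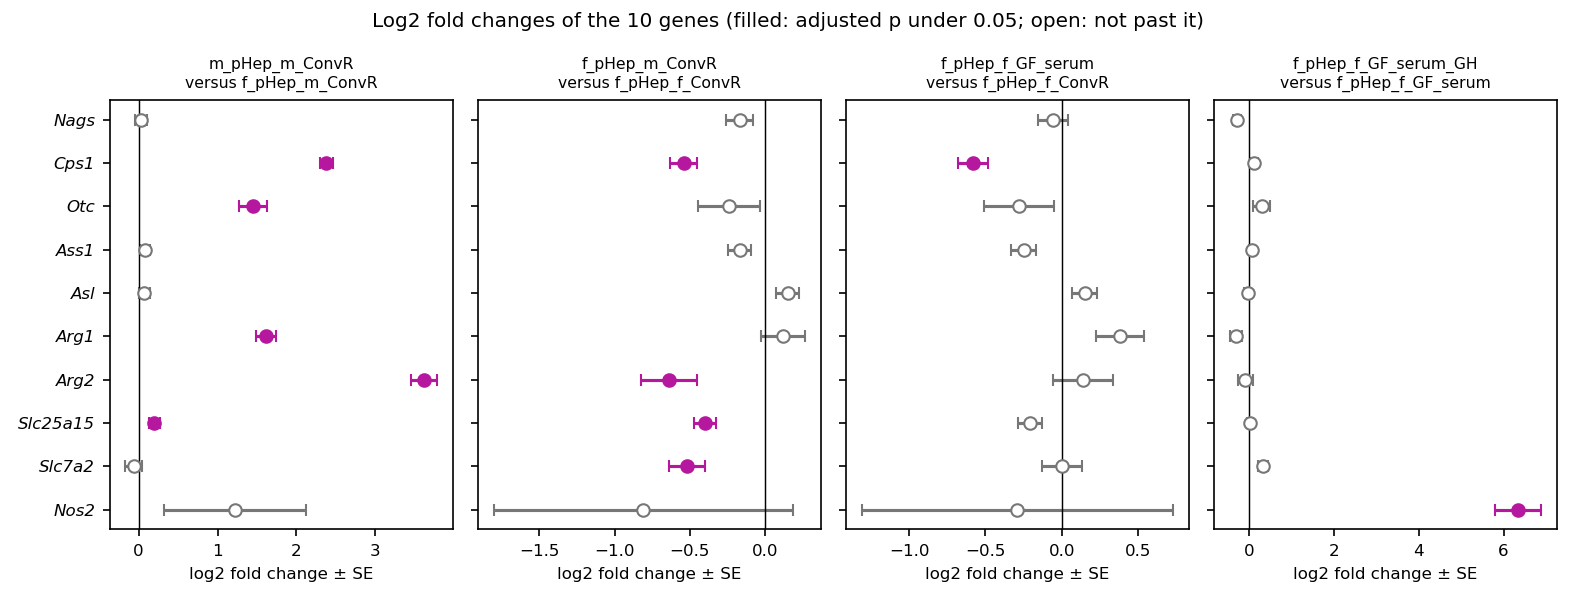
Log2 fold change (horizontal axis, with SE) of the 10 genes in the 4 comparisons named above the panels, with the first-named group over the second; filled points passed an adjusted p of 0.05 and open points did not. The panels have their own scales. The left panel holds 5 filled points on the positive side, the serum panels 4 and 1 on the negative side, and the growth hormone panel a single one, Nos2 at 6.34.

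In female hepatocytes, serum of conventional male mice gave lower levels than serum of conventional female mice for Cps1, the carrier Slc25a15, the transporter Slc7a2 and Arg2. Of the 10 genes, 4 fell and 0 rose, where 4.85% of all genes tested fell and 3.95% rose (8.8% in all), and the median log2 fold change was -0.32, against 0 over all genes. That median includes Nos2, at -0.81 ± 0.993 on few counts. This comparison shares the f_pHep_m_ConvR libraries with the preceding one, and its reference libraries with the germ-free one that follows.

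Cps1 had 11.7, 12.8 and 12.4 CPM in male serum, against 17.8 and 18.0 CPM in female serum, a log2 fold change of -0.54 ± 0.0904 (adjusted p = 0.00157). It passed the threshold in every alternative run for this comparison, between -0.57 and -0.51, with adjusted p of at most 0.0261. Slc25a15 had 24.7, 28.3 and 26.8 CPM in male serum, against 34.4 and 35.6 CPM in female serum (log2 -0.4 ± 0.0724, adjusted p = 0.00301), without overlap. Fitted with these 2 groups alone, its adjusted p was 0.0553. The remaining steps of the cycle did not pass the test. Ass1 had 129, 147 and 125 CPM in male serum, against 151 and 150 CPM in female serum (log2 -0.17 ± 0.0742, adjusted p = 0.162), and without f_pHep_m_ConvR replicate 2 its log2 fold change was -0.25 (adjusted p = 0.0384). Nags (log2 -0.17), Otc (-0.24), Asl (0.15) and Arg1 (0.12) had adjusted p between 0.225 and 0.652.

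Slc7a2 had 284, 211 and 268 CPM in male serum, against 354 and 374 CPM in female serum (log2 -0.52 ± 0.119, adjusted p = 0.013). All 3 male-serum libraries were below both female-serum libraries. Without f_pHep_f_ConvR replicate 3 the adjusted p was 0.076, and with these 2 groups alone 0.0562. Arg2 had 4.5, 3.92 and 3.79 CPM in male serum, against 4.56 and 8.13 CPM in female serum (log2 -0.64 ± 0.186, adjusted p = 0.0437). The female-serum libraries differed from each other more than the lower of them differed from male serum. The call on Arg2 was lost without f_pHep_f_ConvR replicate 3 (log2 -0.17, adjusted p = 0.618) and without each of the 3 male-serum libraries (adjusted p between 0.0608 and 0.1), and with these 2 groups alone (-0.63, adjusted p = 0.193). Nos2 had 2, 0 and 2 counts in male serum, against 5 and 1 counts in female serum.

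Among the 17 other ammonia genes, 5 fell and 1 rose with male serum. Glud1, glutamate dehydrogenase, fell to 416 ± 19.6 CPM in male serum (n = 3), against 534 ± 38.6 CPM in female serum (n = 2), a log2 fold change of -0.36 (adjusted p = 0.00313). Gpt2 (-0.57), Gpt (-0.47), the urea and glycerol channel Aqp9 (-0.32) and Sirt5 (-0.5), a mitochondrial deacylase that acts on Cps1, also fell. Without f_pHep_f_ConvR replicate 2 the count was 1, and without f_pHep_m_ConvR replicate 1 it was 3. In the list of arginine, ornithine and polyamine use, 2 of 28 fell, a share near the 4.85% of all genes that fell. They were Agxt2 (-0.78) and Azin1 (-0.37), which stabilises ornithine decarboxylase. Of the 14 regulators, 2 fell, Foxa2 (-0.64) and Cebpa (-0.33, lost without either f_pHep_f_ConvR replicate, adjusted p = 0.0551 and 0.0844). Of the 14 nitric oxide synthesis genes 0 passed the edgeR test, 1 had an unadjusted p under 0.05, and DESeq2 called 0.

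Of the 19 signals upstream of Nos2, 7 fell and 0 rose with male serum (median log2 -0.26), where 4.85% of all genes tested fell and 3.95% rose. Cd14 averaged 218 ± 7.38 CPM in male serum and 296 ± 13.5 CPM in female serum (log2 -0.44, adjusted p = 0.000208). The interferon gamma receptor chain Ifngr1 (-0.46), Tnfaip3 (-0.4), the NF-kB inhibitor Nfkbia (-0.26), and the transcription factors Irf1 (-0.32) and Hif1a (-0.29) were among those that fell. The count was 2 without f_pHep_f_ConvR replicate 2, 4 without f_pHep_m_ConvR replicate 1, and 2 with these 2 groups alone. Summed hepatocyte markers ran from 8020 to 8280 CPM in male serum and from 7210 to 7520 CPM in female serum, and Tat and Pck1 were the 2 of 8 that fell. Summed Kupffer cell and macrophage markers ran from 85.1 to 103 CPM in male serum and from 109 to 118 CPM in female serum, with Cd68 lower (log2 -0.38, adjusted p = 0.0366). Most of that sum was Cd68, and the median log2 of the 9 tested was 0.2. Summed cholangiocyte markers ran from 21.8 to 31.5 CPM in male serum and from 10.2 to 19.7 CPM in female serum, without overlap, and 1 of 5, Sox9, rose (log2 0.79, adjusted p = 0.0242). The part of these markers in the result was not tested.

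Cps1 fell in female hepatocytes in germ-free serum, against conventional female serum, and no other gene of the 10 passed the test. Cps1 was 1 of 10 genes that fell, where 3.54% of all genes tested fell, and 0 of the 10 rose, where 2.86% did (6.41% in all). At an unadjusted p under 0.05 there were 4 of the 10, with Cps1, Ass1 and Slc25a15 lower and Arg1 higher. The share of all genes tested at that mark was not worked out. DESeq2 called 2 of the 10, Cps1 and Ass1 (adjusted p = 0.0458). Cps1 had 12.0 and 11.9 CPM in germ-free serum, against 17.8 and 18.0 CPM in conventional serum, a log2 fold change of -0.58 ± 0.1 (adjusted p = 0.00325), or 0.669-fold. Leaving out each of the 4 libraries in turn gave -0.59 to -0.57, with adjusted p between 0.0108 and 0.0392.

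Ass1 had 130 and 124 CPM in germ-free serum, against 151 and 150 CPM in conventional serum (log2 -0.25 ± 0.0817, adjusted p = 0.0862). Slc25a15 had 31.0 and 29.5 CPM in germ-free serum, against 34.4 and 35.6 CPM in conventional serum (log2 -0.21 ± 0.0796, adjusted p = 0.133). Neither pair of groups overlapped, but neither passed the adjusted threshold. Groups of 2 libraries can part by chance, and the libraries of Otc and of Arg1, which was higher in germ-free serum, did not overlap either. Arg1 had 13.0 and 14.0 CPM in germ-free serum, against 8.82 and 12.0 CPM in conventional serum (log2 0.38 ± 0.157, adjusted p = 0.175). Arg2 had 7.21 and 6.69 CPM in germ-free serum, against 4.56 and 8.13 CPM in conventional serum (log2 0.14 ± 0.196). Both arginases depended on f_pHep_f_ConvR replicate 3: without it, Arg1 and Arg2 were each at 0.61, with adjusted p of 0.0445 and 0.0398. Slc7a2 had 404 and 325 CPM in germ-free serum, against 354 and 374 CPM in conventional serum, and the ranges overlapped. Nags (log2 -0.06), Otc (-0.28) and Asl (0.15) had adjusted p between 0.333 and 0.8. Nos2 had 0 and 4 counts in germ-free serum, against 5 and 1 counts in conventional serum.

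Of the 17 other ammonia genes, 3 fell with germ-free serum and 1 rose, where 3.54% of all genes tested fell and 2.86% rose. Those that fell were the amino acid transporter Slc38a3 (-0.62), Glud1 (-0.36) and the ammonia transporter Rhbg (-0.49). Of the 28 genes of arginine, ornithine and polyamine use, Agxt2 (-0.7), Azin1 (-0.34) and Agmat (-0.6), an agmatinase homologue, fell. Of the 14 regulators, Cebpa (-0.44), Foxa2 (-0.48), Fgf21 (-1.67) and Hnf4a (-0.43) fell, and of the 19 signals upstream of Nos2 the interleukin 6 receptor Il6ra fell (-0.73) and Nfkb2 rose (0.34). Each of these calls was lost when some single library was left out. Without f_pHep_f_ConvR replicate 2 the counts of called genes in these 4 lists were 0, 0, 2 and 0, in place of 4, 3, 4 and 2, and without f_pHep_f_GF_serum replicate 2 they were 0, 2, 0 and 0. Without f_pHep_f_GF_serum replicate 3 they were 1, 0, 1 and 0. Without f_pHep_f_ConvR replicate 3 they were 3, 2, 3 and 3. The nitric oxide synthesis list had 0 of 14 called by edgeR, 4 at an unadjusted p under 0.05 and 0 called by DESeq2. Of the 8 hepatocyte markers, 4 fell with germ-free serum (Apoa1, Tat, Pck1 and Hnf4a) and 0 rose, while their sum, mostly Alb, ran from 7240 to 8050 CPM in germ-free serum and from 7210 to 7520 CPM in conventional serum. Summed Kupffer cell and macrophage markers ran from 129 to 138 CPM in germ-free serum and from 109 to 118 CPM in conventional serum, with 0 of 9 called by edgeR and by DESeq2 and 1 at an unadjusted p under 0.05. Most of that sum was Cd68, and the median log2 of the 9 tested was -0.1. Summed stellate and fibroblast markers ran from 30.3 to 32.7 CPM in germ-free serum and from 20.8 to 28.1 CPM in conventional serum, and summed endothelial markers from 16.6 to 17.9 CPM in germ-free serum and from 15.1 to 15.8 CPM in conventional serum. None of these 3 sums overlapped between the groups. Groups of 2 libraries can part by chance, and edgeR called 0 of the 8 stellate and fibroblast markers and 0 of the 7 endothelial markers. Summed cholangiocyte markers ran from 20.3 to 20.5 CPM in germ-free serum and from 10.2 to 19.7 CPM in conventional serum, also without overlap, and 1 of 5, Cftr, rose (log2 3.19, adjusted p = 0.0199). Cftr was near the limit of detection, with 1 to 29 counts per library over the 13 libraries, and DESeq2 called 0 of the 5. The part of these markers in the fall of Cps1 was not tested.

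Nos2 rose in female hepatocytes given growth hormone for 2 h in germ-free serum, against germ-free serum alone, where it was near the limit of detection, and no other gene of the 10 passed the test. Nos2 (chr11:78920787-78960254) had 234, 165 and 219 counts with growth hormone, which is 4.95, 3.92 and 4.46 CPM, against 0 and 4 counts (0 and 0.111 CPM) in germ-free serum alone. Over all 10 libraries without growth hormone, Nos2 had 23 counts in total and at most 5 in a library, so each hormone library stood far above each of the others. The log2 fold change was 6.34 ± 0.551 (adjusted p = 5.88e-06). Nos2 was 1 of 10 genes that rose and 0 fell, where 0.511% of all genes tested rose and 0.0747% fell (0.586% in all). Nos2 passed the filter on low counts only through the growth hormone libraries. The 10 genes were also chosen with earlier results of these data known, so this share is not a test of the set.

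The level without hormone rests on 4 counts, which leaves the size of the change wide. The pooled counts, 618 with growth hormone and 4 without, give a ratio of 86.5 at equal depth, with an exact 95% Clopper-Pearson interval from 33.6 to 318 that covers counting error only. Without f_pHep_f_GF_serum replicate 2, the library with 0 counts, the ratio was 40.0 (interval 15.6 to 147) and the fitted log2 fold change 5.28. Without replicate 3, the group had 0 counts and Nos2 was at least 61.9-fold higher, with 3 counts over the group taken as the floor. The adjusted p stayed between 3.21e-05 and 0.000322 when each of the 5 libraries was left out in turn. Per kilobase, Nos2 reached 1.01 ± 0.117 CPM with growth hormone, the lowest mean of the 10 genes in that group. Its ratio to Arg1, which uses the same substrate, was 0.211 ± 0.0487 with growth hormone (n = 3) and 0.002 ± 0.00283 in germ-free serum (n = 2).

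The other 9 genes did not pass the test with growth hormone. Slc7a2 had 506, 428 and 446 CPM with growth hormone, against 404 and 325 CPM in germ-free serum (log2 0.33 ± 0.121, adjusted p = 0.275); with no filter on low counts it passed the threshold (0.34, adjusted p = 0.000838). Nags had 27.6, 31.9 and 31.3 CPM with growth hormone, against 36.0 and 38.2 CPM in germ-free serum (log2 -0.29 ± 0.0897, adjusted p = 0.187). Arg1 had 9.5, 11.9 and 11.0 CPM with growth hormone, against 13.0 and 14.0 CPM in germ-free serum (log2 -0.32 ± 0.143, adjusted p = 0.364). The groups did not overlap for these 3 genes, and together with Nos2 they made 4 of 10 at an unadjusted p under 0.05. Groups this small can part by chance. The share of all genes tested that met either mark was not worked out, so these counts do not set the 10 genes apart. Cps1 (log2 0.1), Otc (0.29), Ass1 (0.06), Asl (-0.04), Arg2 (-0.1) and Slc25a15 (0.01) overlapped between the groups, with adjusted p between 0.59 and 0.967.

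No other gene of nitric oxide synthesis passed the test with growth hormone. Of 14 tested genes of nitric oxide synthesis, edgeR and DESeq2 each called 0, and 2 had an unadjusted p under 0.05. Gch1, the entry enzyme of tetrahydrobiopterin synthesis, averaged 86.7 CPM with growth hormone and 84.4 CPM in germ-free serum (log2 0.04). Spr, the last enzyme of that synthesis, averaged 97.7 CPM in each group. Gch1 and Spr were chosen here after their values were seen and do not stand for the 14. In the lists of other ammonia genes, of arginine, ornithine and polyamine use and of urea cycle regulators, edgeR called 0 of 17, 0 of 28 and 0 of 14, with 5, 5 and 3 genes at an unadjusted p under 0.05, and DESeq2 called 0 in each.

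Of 19 signals known to act upstream of Nos2, 4 rose with growth hormone and 0 fell (median log2 0.17, against 0 over all genes). Of all genes tested, 0.511% rose and 0.0747% fell, but the list was chosen with earlier results of these data known. Tnfaip3 had 322, 251 and 274 CPM with growth hormone, against 124 and 118 CPM in germ-free serum (log2 1.22 ± 0.0987, adjusted p = 2.89e-06). Nfkbiz had 106, 81.1 and 88.6 CPM with growth hormone, against 39.6 and 38.8 CPM in germ-free serum (log2 1.23 ± 0.105, adjusted p = 4.75e-06). Nfkbia had 139 CPM in each of the 3 hormone libraries, against 80.9 and 82.1 CPM in germ-free serum (log2 0.77 ± 0.0708, adjusted p = 9.56e-06). Tnfaip3 and Nfkbia restrain NF-kB and are also its targets, and Nfkbiz is a nuclear cofactor of NF-kB. Irf1, a transcription factor of the Nos2 promoter in macrophages, had 58.3, 52.5 and 55.7 CPM with growth hormone, against 32.1 and 40.2 CPM in germ-free serum (log2 0.62 ± 0.092, adjusted p = 0.00237), and lost its call without f_pHep_f_GF_serum replicate 2 (0.47, adjusted p = 0.109). The NF-kB subunits Nfkb1 (log2 0.17), Nfkb2 (-0.05) and Rela (-0.13) and the receptors Tlr4 (-0.2), Il1r1 (0.46), Tnfrsf1a (0.09) and Ifngr1 (0.32) did not pass the threshold. DESeq2 called 7 of the 19.

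**Figure D4:**
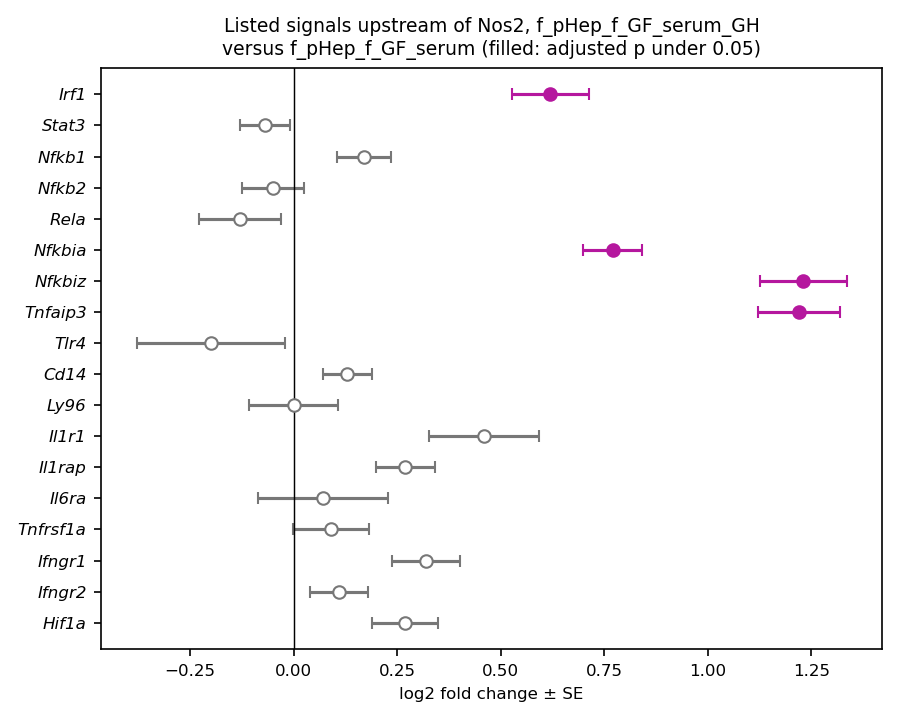
Log2 fold change with SE (horizontal axis) of 18 of the 19 listed signals upstream of Nos2, growth hormone in germ-free serum over germ-free serum alone; filled points passed an adjusted p of 0.05. The 4 filled points are Irf1 at 0.62, Nfkbia at 0.77, Tnfaip3 at 1.22 and Nfkbiz at 1.23, and the open points lie between -0.2 and 0.46.

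The genes whose centred log2 CPM profile over the 13 libraries was most like that of Nos2 were the cytokine Il1a, the chemokines Ccl3, Ccl20 and Ccl4, and the cytokine Il1b. Their root mean square differences were 1.1, 1.13, 1.43, 1.49 and 1.63 on the log2 scale, far from identity. These genes were chosen by their profile, so their higher level with growth hormone follows from the choice. They also reached the mean count of 50 only through the growth hormone libraries. Il1a had 467, 524 and 539 counts with growth hormone, against 3 and 4 counts in germ-free serum. Il1b averaged 8.73 CPM with growth hormone and 0.0399 CPM in germ-free serum, and Ccl20 averaged 9.24 CPM with growth hormone and 0.244 CPM in germ-free serum. Macrophages also make these cytokines and chemokines and Nos2. Summed Kupffer cell and macrophage markers ran from 91.1 to 111 CPM with growth hormone and from 129 to 138 CPM in germ-free serum, and edgeR called 0 of the 9 tested (2 at an unadjusted p under 0.05, 1 called by DESeq2). Over the 13 libraries, Cd68 had at least 2551 counts and the other 11 markers at most 156, with Adgre1 at 9 to 30, Marco at 0 to 10, Cd5l at 0 to 9 and Timd4 at 0 to 3 counts per library. Summed leukocyte markers ran from 1.93 to 3.09 CPM with growth hormone and from 1.51 to 1.84 CPM in germ-free serum. Summed stellate and fibroblast markers ran from 18.0 to 25.1 CPM with growth hormone and from 30.3 to 32.7 CPM in germ-free serum. Which cells of the cultures carried the Nos2 RNA was not tested.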

How the data were processed

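The deposited table holds unscaled counts of reads on the exons of each gene, in whole numbers. STAR 2.4.0i and the build mm10 are named in the submitters' processing notes; for the counter, its annotation and its strand setting, the sources used here give nothing. Libraries were stranded and depleted of ribosomal RNA, per the labels' protocols. The labels list 15 samples. Of the 15 columns, 2 share a header name and could not be tied to a sample, so they were not used and 13 libraries remained. Replicates of a group differed beyond sampling noise (chi-square per degree of freedom 5.46 to 53.36).

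TMM scaling and filterByExpr (minimum count 10) were applied in edgeR 4.0.16 under R 4.3.3. A single model of the 5 groups (8 residual degrees of freedom, biological coefficient of variation 9%) was fitted to 17405 genes and tested with the two-sided quasi-likelihood F test, with Benjamini-Hochberg adjustment over all genes tested and a threshold of 0.05. SE is the absolute log2 fold change divided by the square root of F. CPM per kb uses the exon union length of GENCODE M21 (mm10), in which 36308 of 38087 rows had an identifier. The members and gene lists were chosen with earlier results of these data known. Of the genes in the pathway lists, 92 matched by symbol, 3 by identifier and 1 not; of the cell type markers, 47 by symbol and 1 by identifier. Named genes are all 10 members, up to 4 called genes per list and comparison by smallest p, and the 5 genes nearest Nos2 and Cps1 in centred log2 CPM (mean count at least 50); others named beside small counts were chosen after their values were seen. Of the listed genes, 2 enter the counts and are not reported here by name. On simulated counts, between 69.5% and 74% of genes with a true log2 change of 1 were recovered in the 4 comparisons. The log2 changes of the 10 genes between sera were smaller than 1 in size, and the recovery of smaller changes is not given here. Alternatives were RLE factors, library totals, no filter, a minimum count of 50, DESeq2 1.42.0, a replicate block, fits of 2 groups, and leaving out libraries. Figures were drawn with matplotlib 3.10.9.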

Additional observations from a re-analysis of the deposited data

How the results depend on the processing

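Across the alternatives, the log2 fold changes of the 10 genes kept their direction and their side of the threshold in 460 cases, lost a call in 14, gained one in 5 and changed sign in 28, all of these without a call. For the listed genes, 543 were unchanged in this sense and 80 lost a call. Of the group levels, 9 of 100 moved by more than 1 SD. The counts of called genes that moved were as follows. Germ-free against conventional serum gave 1731 genes without a filter, 611 with the 2 groups alone and 367 without f_pHep_f_ConvR replicate 2 and f_pHep_f_GF_serum_GH replicate 1, the libraries richest in Xist, in place of 1115, and DESeq2 called 2 of the 10. Male against female serum gave 468 genes and 1 of the 10 with the 2 groups alone, and 825 without the Xist-rich libraries, in place of 1532. Growth hormone gave 796 genes and 2 of the 10 without a filter, 272 with DESeq2, 62 with the replicate block and 156 with the 2 groups alone, in place of 102. Leaving out 1 library gave 274 to 1225 genes and 1 to 3 of the 10 for germ-free serum, 663 to 1652 and 2 to 4 for male serum, 5248 to 6090 and 4 to 5 for male cells, and 33 to 190 and 1 to 1 for growth hormone. The cause was not tested.

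The changes of sign were these. In germ-free serum, Slc7a2 was at -0.01 on library totals and without a filter, at -0.04 without f_pHep_f_ConvR replicate 2 or both Xist-rich libraries, and at -0.16 without f_pHep_f_GF_serum replicate 2. There, Arg2 was at -0.23 and Nos2 at 1.11 without f_pHep_f_ConvR replicate 2 or the Xist-rich libraries, Nos2 at 0.76 without f_pHep_f_GF_serum replicate 2, and Nags at 0.08 without f_pHep_f_ConvR replicate 3. In male serum, Arg1 was at -0.09 and Nos2 at 0.59 without f_pHep_f_ConvR replicate 2 or the Xist-rich libraries. In male cells, library totals gave Ass1 -0.01, Asl -0.02 and Nags -0.06, and single left-out libraries gave Slc7a2 0.03 and 0.02 and Nags -0.01 and -0.004. With growth hormone, Slc25a15 was at -0.02 on library totals, without f_pHep_f_GF_serum replicate 3, without f_pHep_f_GF_serum_GH replicate 1 and without the Xist-rich libraries, Asl at 0.08 without f_pHep_f_GF_serum replicate 3, and Arg2 at 0.0009 without the Xist-rich libraries. With 1 library left out, these genes ranged from -0.23 to 0.61 (Arg2), -0.19 to 0.08 (Nags), -0.16 to 0.15 (Slc7a2) and -4.46 to 1.11 (Nos2) in germ-free serum, from -0.09 to 0.36 (Arg1) and -1.47 to 0.59 (Nos2) in male serum, from -0.01 to 0.07 (Nags) and -0.18 to 0.03 (Slc7a2) in male cells, and from -0.02 to 0.05 (Slc25a15) with growth hormone.

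Deviations of same-numbered libraries from their group means correlated between -0.17 and 0.13. The labels do not say whether a replicate number marks a shared animal, batch or day. With so few libraries per group, these correlations cannot settle it. With the replicate block, 1, 3, 5 and 1 of the 10 genes were called for germ-free serum, male serum, male cells and growth hormone, in place of 1, 4, 5 and 1, and 981, 1189, 6266 and 62 of all genes. The call that differed was Arg2 in male serum (-0.61, adjusted p = 0.0792). Depth limits Nos2 outside the growth hormone libraries, where no library had more than 5 counts.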
